A study of Mus musculus with 6 samples.

Results

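The 46 genes described here encode the machinery that copies DNA in S phase, from origin licensing to nucleotide supply and the chromatin factors that follow the fork. They were taken by name, as the entries whose RefSeq accession maps to them, and not by any measured value. All 46 were found, each on 1 of 23146 entries. The study sequenced RNA from EML cells in 6 libraries labelled as knockdown or overexpression of KAI1 or as their controls. KAI1 is a tetraspanin of the cell surface whose gene is Cd82. EML is a mouse bone marrow progenitor line that depends on stem cell factor. The labels give strain BDF1, bone marrow and basophil for every library, and a medium with 200 ng/ml stem cell factor and 20% FBS.

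The 4 groups were a knockdown control (2 libraries), a KAI1 knockdown (2 libraries), an overexpression control (1 library) and a KAI1 overexpression (1 library). The controls are named WT in the titles. The sources used here do not say how the knockdown and the overexpression were made or whether each is 1 clone or a pool. The libraries of a group are numbered as replicates and separate cultures are not stated. A p-value here thus sets a group difference against the spread between such libraries only, which may be technical. Of basophil markers, Mcpt8 stood between 116 RPKM in KAI1 knockdown replicate 2 and 3908 RPKM in the KAI1 overexpression, while Fcer1a was listed at 0 in knockdown control replicate 2 and KAI1 knockdown replicate 1 and reached 24.2 RPKM in control replicate 1. RPKM, the unit of the deposited values, scales reads by transcript length and by the mapped reads of the library, so levels can be set side by side between genes. Cd82 stood at 43.9 and 13.8 RPKM in the knockdown control pair, 7.65 and 6.91 RPKM in the knockdown, 11.9 RPKM in the overexpression control and 15.2 RPKM in the overexpression. Its knockdown difference did not pass limma's test (log2 difference -1.64, SE 0.58, adjusted p = 0.83). On the RPKM + 1 scale Cd82 was 1.26-fold higher in the overexpression than in its control, 1 library against 1. Its level there was below that of knockdown control replicate 1.

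In G1, the origin recognition complex with Cdc6 and Cdt1 loads the ring of Mcm2 to Mcm7 onto DNA, a step that geminin (Gmnn) blocks once S phase has begun. Cdc45 and the GINS complex then turn the ring into the active helicase, primase and the replicative polymerases copy the strands, and the clamp Pcna, put in place by the Rfc loader, holds the polymerases on the template. Many of these genes are transcribed at the G1/S border by E2F factors, so they are widely read as a group that follows proliferation in progenitor cells.

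Promoter sequence was looked at first, because E2F sites are the feature this group is known for. RefSeq windows (GRCm38.p6, 250 bases before to 50 after a start site) were matched by symbol for 37 members. An E2F-type match was any of TTTCCCGC, TTTCGCGC, TTTGCCGC and TTTGGCGC on either strand, and such matches may overlap. Of the 37 members 15 had a match, or 40.5%, against 2.60% of the 27025 genes in the table. Among 52 other replication genes described further on, 16 of 43 with a window had a match, or 37.2%. The motif CCAAT, also on either strand, was in 24 of the 37 members, or 64.9%, against 41.1% of all genes. A match is a description of letters and does not show that a factor binds there.

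The 200 bases before the start site are shown for 4 members that recur in the results, with E2F-type matches in capitals. Mcm5, Mcm6 and Mcm7 belong to the helicase ring, and Uhrf1 reads newly copied DNA for methylation. Where the table gives a gene several start sites, the first window with a match in this stretch is shown, and the other windows of Mcm7 and Uhrf1 had no E2F-type match. Mcm6 has 3 matches, of which one pair overlaps in a run of 12 bases, and Mcm5 has 2 that overlap in the same manner. The windows lie at chr8:75109309-75109508 on the plus strand for Mcm5, chr1:128359706-128359905 on the minus strand for Mcm6, chr5:138171884-138172083 on the minus strand for Mcm7 and chr17:56304113-56304312 on the plus strand for Uhrf1.
Mcm5: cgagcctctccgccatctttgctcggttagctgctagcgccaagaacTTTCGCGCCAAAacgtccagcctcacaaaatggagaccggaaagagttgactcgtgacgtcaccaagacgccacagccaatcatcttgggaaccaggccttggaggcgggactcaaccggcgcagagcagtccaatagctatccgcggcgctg
Mcm6: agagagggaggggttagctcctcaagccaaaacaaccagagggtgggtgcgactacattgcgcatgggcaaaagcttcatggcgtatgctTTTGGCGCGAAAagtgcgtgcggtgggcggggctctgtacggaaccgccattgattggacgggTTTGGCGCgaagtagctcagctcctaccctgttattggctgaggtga
Mcm7: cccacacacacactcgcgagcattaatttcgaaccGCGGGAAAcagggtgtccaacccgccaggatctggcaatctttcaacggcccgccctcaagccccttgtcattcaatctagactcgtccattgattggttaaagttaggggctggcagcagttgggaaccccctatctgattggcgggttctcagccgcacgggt
Uhrf1: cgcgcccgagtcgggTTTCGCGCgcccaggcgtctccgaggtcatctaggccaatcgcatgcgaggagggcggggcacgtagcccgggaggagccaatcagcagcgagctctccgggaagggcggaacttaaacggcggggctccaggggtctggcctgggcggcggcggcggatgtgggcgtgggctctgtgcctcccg

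All 46 members were detected in every library. Their mean over the 6 libraries ran from 2.84 RPKM for Orc1 to 245 RPKM for Rfc2, and Mcm7 (164 RPKM), Pcna (153 RPKM) and Tk1 (114 RPKM) followed Rfc2. Depth, estimated from the steps between low values, ran from 9610000 reads in knockdown control replicate 2 to 25100000 in the overexpression control, and the lowest estimate for a member was 79 reads, for Orc1. Because the deposited locus of 6 members (Mcm7, Gins2, Rfc4, Lig1, Tk1 and Ccne2) is shared with other entries and strand use is not stated, reads of overlapping transcripts may not be told apart there. Rfc4, for instance, shares its locus (chromosome 16, 23107552 to 23127803 on mm9) with the translation factor gene Eif4a2, which stood between 35.6 and 59.1 RPKM.

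In the KAI1 knockdown the replication genes stood mostly above the controls, but none passed the test. The difference in mean log2(RPKM + 1) was above 0 in 42 of 46 members, where 53.0% of the 10113 entries tested were above 0. Its median was 0.34 over the members and 0.028 over all entries tested. In 23 of the 46 members both libraries of the knockdown exceeded both controls, against a background of 21.5% of entries, and in 1 member both were below both controls, against 17.0%. limma called 0 members at an adjusted p below 0.05 (smallest adjusted p = 0.83) and 0.0297% of all entries, and 1 member, Uhrf1, had an unadjusted p below 0.05, against 3.32% of entries. With 2 libraries a group the intervals are wide, and a p that misses the threshold does not show equal levels. In bulk RNA, a different share of cells in S phase and a different amount of RNA per cell cannot be told apart.

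The control pair was farther apart than the knockdown pair for these genes. Control replicate 1 lay below control replicate 2 in 32 of 46 members (49.2% of all entries), with a median log2 ratio of -0.32. In 13 members it was at least 1.5-fold lower on the RPKM + 1 scale (20.4% of entries), and in 1, E2f1, at least 1.5-fold higher (23.2%). The knockdown pair differed by 1.5-fold in 1 member (9.27% of entries). Control replicate 1 also had the highest summed level of mast cell and basophil markers, given at the end, and the part of that in these differences was not tested. Without control replicate 1 the median knockdown difference of the members was 0.16, against 0.031 over all entries, and 27 members lay above the remaining control and 11 below, where 42.0% and 36.0% of entries did. Without control replicate 2 it was 0.45, with 38 members above (44.2% of entries) and 7 below (41.3%). With control replicate 1 as the single control, which has no spread of its own, limma called Mcm5, Mcm7, Mcm10 and Rfc4 higher (adjusted p between 0.0347 and 0.047), 4 of 46 members against 10.3% of entries. Without knockdown replicate 1 the members numbered 24 above (32.0%) and 3 below (25.7%), and without knockdown replicate 2 they numbered 28 (29.2%) and 2 (25.8%), with 0 members called in either.

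**Figure D1:**
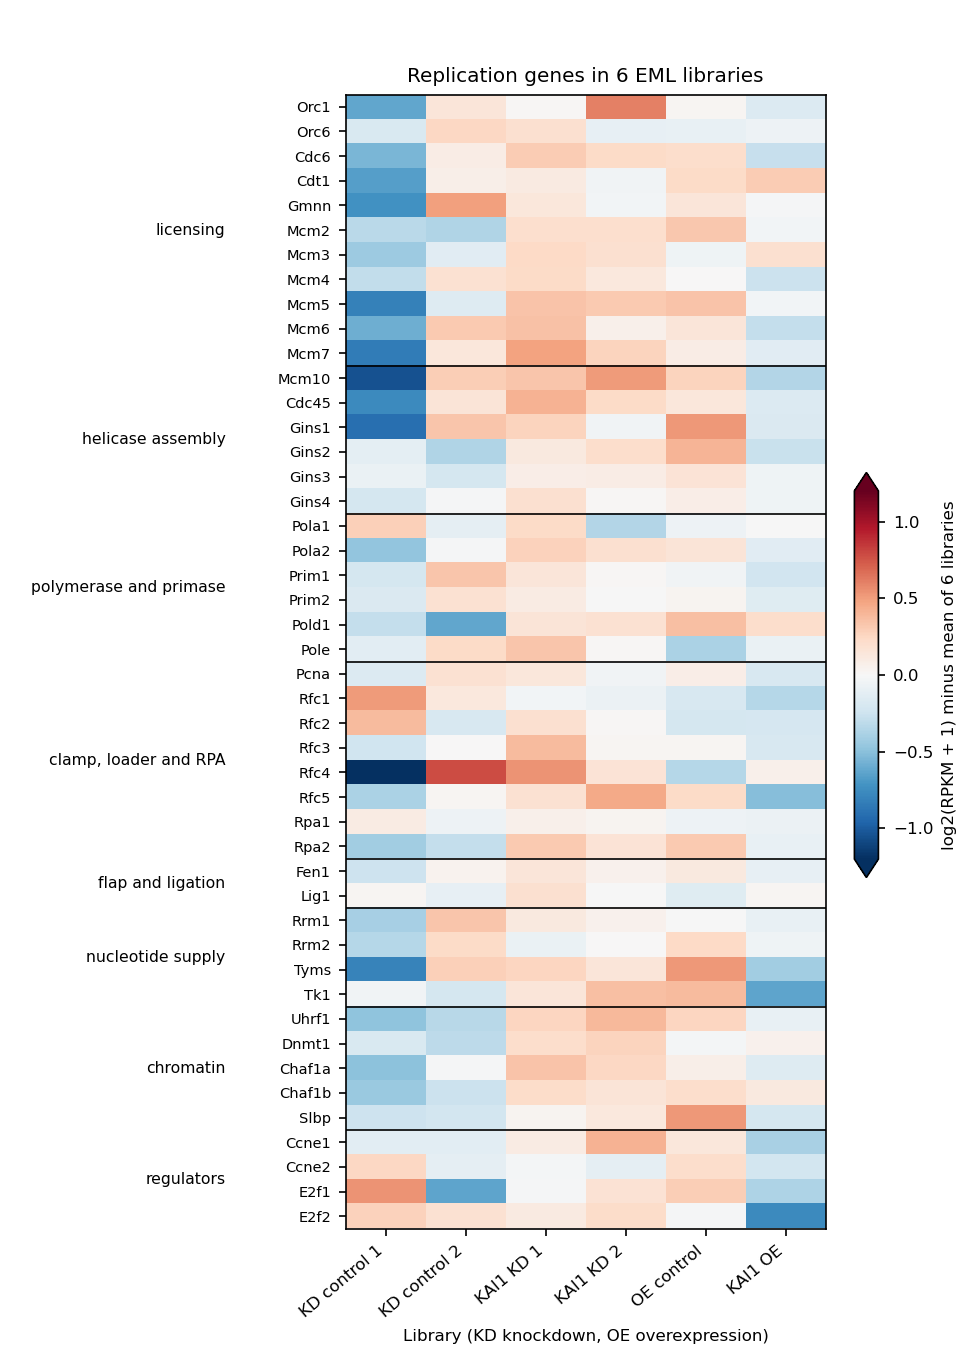
Each row is 1 of the 46 replication genes, grouped by role, and each column 1 library; colour gives log2(RPKM + 1) minus the gene's mean over the 6 libraries. Knockdown control replicate 1 is the lowest library for 27 genes (28.3% of all entries), while E2f1, Rfc1 and Rfc2 are highest there.

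Licensing genes had a median log2 difference of 0.50 over 11 genes in the knockdown, with control replicate 1 the lowest library for 10 (28.3% of entries). Their geometric mean of RPKM + 1 was 25.27 in control replicate 1 and 39.42 in control replicate 2. It was 43.51 and 41.45 in the knockdown pair, close to control replicate 2. In 5 of the 11 (Cdc6, Mcm2, Mcm3, Mcm5 and Mcm7) both knockdown libraries lay above both controls (21.5% of entries), and in none below (17.0%). Mcm5 (chromosome 8, 77633427 to 77652338 on mm9) had the largest difference of the 46 members with all 4 libraries in the fit. It stood at 42.8 and 68.0 RPKM in the control pair and at 96.5 and 94.7 RPKM in the knockdown, and at 96.2 RPKM in the overexpression control and 73.8 RPKM in the overexpression. The knockdown pair was closely matched and the controls were not, and the log2 difference was 0.81 (SE 0.32, 95% confidence interval -0.045 to 1.67, adjusted p = 0.83). Without control replicate 1 it was 0.49, less than for Pold1, E2f1, Uhrf1 and others, and without control replicate 2 it was 1.14, less than for Rfc4, Mcm10 and Mcm7.

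Mcm2, another ring subunit (chromosome 6, 88833468 to 88848774), had the most even pairs of this group. It stood at 55.1 and 53.8 RPKM in the control pair and at 79.8 and 79.7 RPKM in the knockdown, with 87.1 RPKM in the overexpression control and 67.8 RPKM in the overexpression. Its groups did not overlap and control replicate 1 was not the low library here, unlike for Mcm5. The log2 difference was 0.54 (SE 0.23, interval -0.071 to 1.16), and it ran from 0.53 to 0.56 with any 1 library left out.

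Mcm7 was the most abundant ring subunit in every library. It stood at 87.6 and 173 RPKM in the control pair, 220 and 190 RPKM in the knockdown, 167 RPKM in the overexpression control and 144 RPKM in the overexpression. Control replicate 1 was far below the other 5 libraries, and control replicate 2 came close to the knockdown pair (log2 difference 0.73, SE 0.41). Without control replicate 1 the difference was 0.24 and without control replicate 2 it was 1.21. Mcm6 had the same low control but overlapping groups, at 60.9 and 115 RPKM in the control pair against 118 and 95.7 RPKM in the knockdown, with 102 RPKM in the overexpression control and 75.2 RPKM in the overexpression. Its difference of 0.34 turned to -0.11 without control replicate 1.

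The ring holds its subunits in equal number, and their mRNA levels per length differed. Relative to the mean of the 6 subunit genes in the same library, Mcm7 stood between 1.57 and 2.02 and Mcm4 between 0.26 and 0.367. Mcm7 was the highest and Mcm4 the lowest in all 6 libraries, with the order of Mcm2, Mcm3, Mcm5 and Mcm6 between them changing from library to library. Mcm2 had the highest share in control replicate 1 (0.989) and the lowest in control replicate 2 (0.62). The locus of Mcm7 also holds the microRNA entries Mir106b, Mir93 and Mir25.

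**Figure D2:**
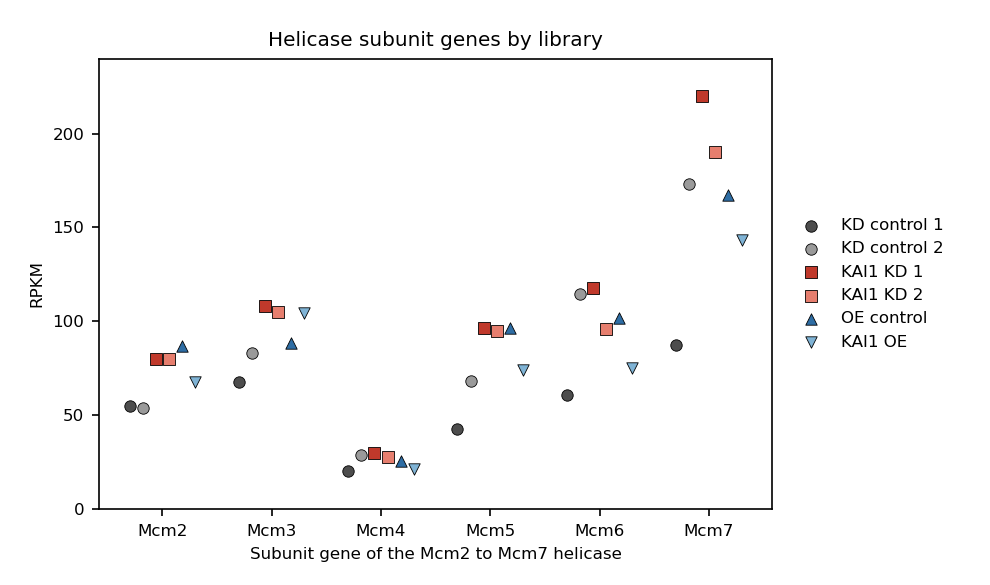
Points give RPKM (vertical axis, from 0) of the 6 ring subunit genes in each library, with circles for knockdown controls, squares for the KAI1 knockdown and triangles for the overexpression arm. Mcm7 is the highest and Mcm4 the lowest gene in every library. Knockdown control replicate 1 is the lowest library for 5 of the 6 genes (28.3% of all entries).

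Of the loading factors, Cdc6 stood at 6.70 and 10.98 RPKM in the control pair and 12.9 and 12.2 RPKM in the knockdown, then at 12.04 RPKM in the overexpression control and 8.28 RPKM in the overexpression. Both knockdown libraries and the overexpression control were close together, and the other 3 libraries lay below them (log2 difference 0.50, SE 0.30, and 0.18 without control replicate 1). The origin recognition subunits Orc1 and Orc6, the loader Cdt1 and its inhibitor Gmnn all overlapped between groups. Gmnn had the widest control pair of these, at 26.4 and 62.95 RPKM, with both knockdown libraries (48.8 and 43.3 RPKM) between the controls.

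Helicase assembly genes gave 5 of 6 members with both knockdown libraries above both controls (21.5% of entries) and a median log2 difference of 0.40. Mcm10, which helps activate the loaded helicase (chromosome 2, 4911770 to 4933837), stood at 10.98 and 29.4 RPKM in the control pair, 30.1 and 34.2 RPKM in the knockdown, 28.7 RPKM in the overexpression control and 18.4 RPKM in the overexpression. The libraries split into 4 near 30 RPKM and a low pair made of control replicate 1 and the overexpression. The log2 difference was 0.79 (SE 0.51, interval -0.57 to 2.16), and leaving out control replicate 1 or 2 gave 0.12 or 1.47.

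Cdc45, the helicase cofactor, showed the same arrangement at 14.2 and 27.7 RPKM in the control pair against 33.5 and 29.2 RPKM in the knockdown, with 27.4 and 22.1 RPKM in the overexpression control and the overexpression. Its difference of 0.63 was 0.17 without control replicate 1. The GINS subunits were not alike. Gins2 stood at 18.2 and 15.2 against 21.5 and 23.1 RPKM, and at 26.6 RPKM in the overexpression control and 16.3 RPKM in the overexpression. Gins1 overlapped between groups, at 7.67 and 19.4 against 18.6 and 14.8 RPKM, and went from 22.3 RPKM in the overexpression control to 13.4 RPKM in the overexpression. Gins4 was the most abundant GINS gene and the most even, at 40.1 and 46.1 against 53.3 and 47.0 RPKM, with 49.1 and 44.8 RPKM in the overexpression arm. Gins3, the scarcest, lay between 4.03 and 5.49 RPKM throughout.

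Polymerase and primase genes had a small median difference of 0.083, and 2 of 6 lay above both controls, against 21.5% of entries. Pold1, the catalytic subunit of the lagging strand polymerase delta (chromosome 7, 51788114 to 51804185), stood at 25.5 and 20.1 RPKM in the control pair and 35.1 and 35.7 RPKM in the knockdown, and at 40.7 RPKM in the overexpression control and 36.5 RPKM in the overexpression. For this gene control replicate 2 was the lowest library and the overexpression was not low. The log2 difference was 0.62 (SE 0.24, interval -0.035 to 1.28).

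Pola2, a subunit of the polymerase alpha and primase complex, stood at 20.1 and 27.9 against 34.3 and 32.3 RPKM, with 31.5 and 25.5 RPKM in the overexpression control and the overexpression. Its partners Prim1, Prim2 and Pola1 had differences of 0.022, 0.040 and -0.15, and all overlapped between groups. Pole, the catalytic subunit of the leading strand polymerase epsilon, stood at 9.36 and 12.3 against 13.3 and 10.4 RPKM. It was lowest in the overexpression control, at 7.69 RPKM, and stood at 9.68 RPKM in the overexpression.

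The clamp, its loader and the single-strand binding protein RPA differed from gene to gene. Pcna stood at 136 and 173 RPKM in the control pair against 167 and 147 RPKM in the knockdown, with 161 RPKM in the overexpression control and 133 RPKM in the overexpression, so its groups overlapped (log2 difference 0.033, interval -0.70 to 0.77). Among the 5 loader genes, Rfc5 stood at 36.5 and 48.8 against 54.5 and 66.1 RPKM and went from 56.4 RPKM in the overexpression control to 33.2 RPKM in the overexpression. Rfc1, the large subunit, was the 1 member with both knockdown libraries below both controls, at 22.4 and 16.9 against 15.1 and 14.7 RPKM, with 13.4 and 11.9 RPKM in the overexpression arm (log2 difference -0.37, SE 0.25).

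Rfc4 had the widest range of any member, 4.36-fold from lowest to highest. It stood at 7.10 and 30.9 RPKM in the control pair, 26.0 and 19.9 RPKM in the knockdown, 13.7 RPKM in the overexpression control and 18.4 RPKM in the overexpression. The controls were the lowest and the highest library, and the difference of 0.56 turned to -0.43 without control replicate 1. Rfc2, the most abundant member, stood at 316 and 213 RPKM in the control pair, 278 and 246 RPKM in the knockdown, 210 RPKM in the overexpression control and 211 RPKM in the overexpression. Its level was 6.88 to 44.5 times that of Rfc4 in the same library, although both proteins sit in 1 loader complex. Rpa2 stood at 41.9 and 46.01 against 70.2 and 63.0 RPKM (log2 difference 0.59, SE 0.24), with 69.96 and 52.8 RPKM in the overexpression arm, whereas Rpa1 varied by only 1.13-fold over the 6 libraries.

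Genes of lagging strand maturation varied little. The flap nuclease gene Fen1 stood at 27.2 and 33.5 against 36.1 and 33.7 RPKM and at 35.5 and 30.4 RPKM in the overexpression control and the overexpression. The ligase gene Lig1 stood at 47.2 and 43.3 against 53.1 and 46.2 RPKM and at 41.6 and 47.05 RPKM. Both varied by at most 1.33-fold over the libraries.

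Nucleotide supply genes had a median log2 difference of 0.25 in the knockdown and a median log2 ratio of -0.61 in the overexpression arm. Of these 4 genes 1 lay above both controls, a share near the 21.5% of all entries. Tk1, the thymidine kinase of the salvage pathway (chromosome 11, 117676833 to 117701222), stood at 107 and 95.7 RPKM in the knockdown control pair, 122 and 142 RPKM in the knockdown, 145 RPKM in the overexpression control and 71.1 RPKM in the overexpression. The overexpression was the lowest of the 6 libraries and its control the highest. Tyms, which makes thymidylate, stood at 17.5 and 38.2 against 37.4 and 34.6 RPKM, and went from 45.2 RPKM in the overexpression control to 23.1 RPKM in the overexpression. The ribonucleotide reductase genes Rrm1 and Rrm2 had knockdown differences of 0.12 and 0.024 and overlapped between groups.

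In 5 of 5 chromatin genes both knockdown libraries lay above both controls (21.5% of entries), and the median log2 difference was 0.54. Uhrf1, which recruits the maintenance methyltransferase to hemimethylated DNA (chromosome 17, 56442760 to 56462909), stood at 32.7 and 36.2 RPKM in the control pair and 55.0 and 60.3 RPKM in the knockdown, with 55.1 RPKM in the overexpression control and 43.0 RPKM in the overexpression. Its difference of 0.73 (SE 0.23, interval 0.10 to 1.35, adjusted p = 0.83) was the 1 among the members whose interval, without adjustment, lay wholly above 0, and it ran from 0.65 to 0.80 with any 1 library left out. Dnmt1, the methyltransferase itself, stood at 67.7 and 61.7 against 89.6 and 93.4 RPKM, with 75.7 and 79.7 RPKM in the overexpression arm.

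The subunits of the chromatin assembly factor that puts histones onto new DNA were close to each other. Chaf1a stood at 30.6 and 42.9 against 55.2 and 51.7 RPKM and Chaf1b at 47.3 and 53.9 against 75.5 and 72.1 RPKM, with differences of 0.55 and 0.54. Slbp, which binds the stem-loop of histone mRNA, stood at 21.5 and 21.9 against 26.4 and 28.2 RPKM. It went from 37.4 RPKM in the overexpression control, the highest library, to 22.1 RPKM in the overexpression.

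The regulators had a median knockdown difference of 0.029 over 4 genes. Ccne1, the cyclin that drives entry into S phase, stood at 32.1 and 32.2 RPKM in the control pair and 37.6 and 47.4 RPKM in the knockdown, then at 38.6 RPKM in the overexpression control and 26.5 RPKM in the overexpression. E2f1 was at its highest in control replicate 1 and its lowest in control replicate 2, at 37.9 and 16.3 RPKM, with 25.4 and 29.2 RPKM in the knockdown, 31.9 RPKM in the overexpression control and 19.7 RPKM in the overexpression. Control replicate 1, where E2f1 was highest (30.3% of entries were), was the lowest library for 10 of the 11 licensing genes (28.3% of entries). A link between them was not tested. E2f2 stood at 9.50 and 8.87 against 8.34 and 9.12 RPKM and went from 7.61 RPKM in the overexpression control to 4.11 RPKM in the overexpression.

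In the overexpression arm most members were lower with KAI1 overexpression than without, but each condition is 1 library, so there are no replicates and no test. Of the 46 members 37 were lower and 9 higher, where 49.4% of the 9936 entries compared were lower. The median log2 ratio was -0.22 over the members and 0.0057 over all entries. By size, 9 members were at least 1.5-fold lower on the RPKM + 1 scale, against 11.4% of entries, and 0 at least 1.5-fold higher, against 10.9%. At 2-fold these counts were 1, Tk1, against 5.21%, and 0, against 4.92%. The 9 were Mcm10, Gins1, Gins2, Rfc5, Tyms, Tk1, Slbp, E2f1 and E2f2. Tk1 was 2.02-fold lower and Tyms 1.91-fold lower, the largest ratios of the list, and E2f2, Rfc5 and Slbp were between 1.67-fold and 1.69-fold lower.

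No licensing gene was 1.5-fold apart in this arm, where 11.4% of entries were that much lower and 10.9% that much higher. Of the 11 licensing genes 8 were lower by any amount (49.4% of entries). Among them Cdc6 was 1.41-fold lower and Mcm6 1.35-fold lower, while Mcm3 was 1.18-fold higher. Rfc4 and Pole, at 1.32-fold and 1.23-fold higher, had the largest ratios in the higher direction.

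The knockdown and the overexpression comparisons share no library. Of the 23 members above both controls in the knockdown, 21 were lower in the overexpression than in its control, and the exceptions were Mcm3 and Dnmt1. Among all entries above both controls in the knockdown, 68.2% were lower in the overexpression, and 14.7% of all entries tested showed both directions. The members' share was not tested against these. Tyms, Gins1 and Gmnn are members that were lower in the overexpression but whose knockdown groups overlapped.

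**Figure D3:**
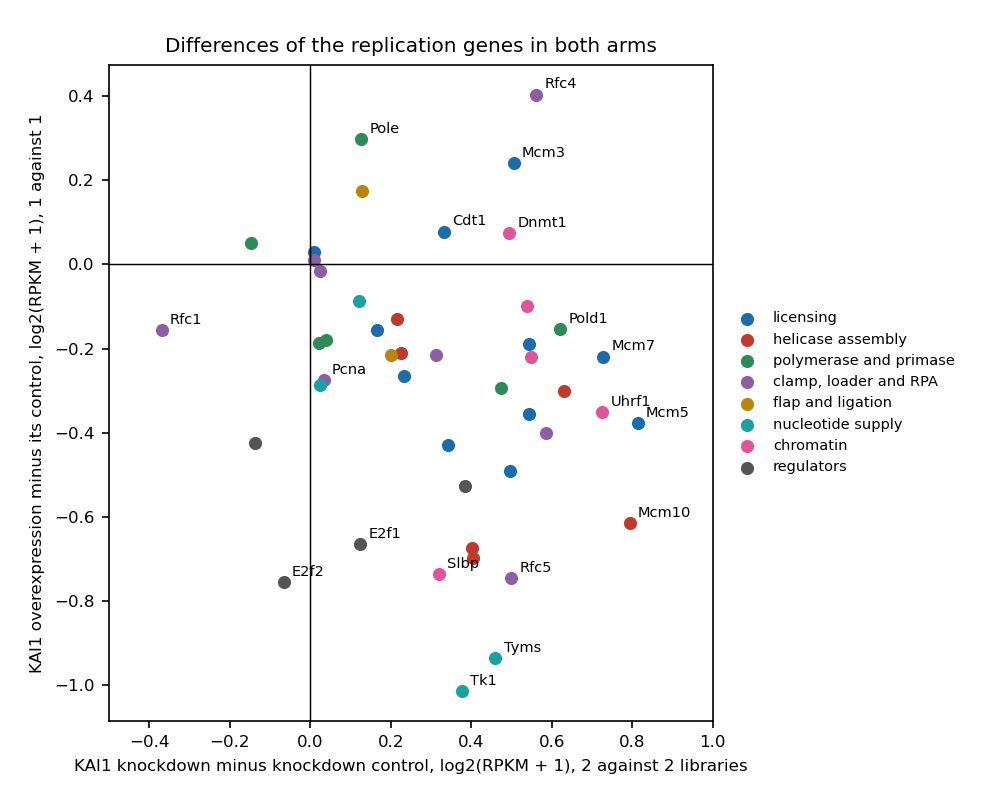
Each point is 1 of the 46 replication genes, with the knockdown difference in log2(RPKM + 1) across (2 against 2 libraries) and the overexpression ratio on the same scale upwards (1 against 1), coloured by role; error bars are left out and the text gives SEs. Most points lie to the right of 0 and below 0, with Mcm5 and Mcm10 farthest to the right when all 4 knockdown arm libraries are used, Tk1 lowest and Rfc1 farthest to the left.

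Across all 6 libraries, knockdown control replicate 1 was the lowest for 27 of 46 members, against 28.3% of all entries. The KAI1 overexpression was lowest for 9, a share near its background of 17.4%. Control replicate 2 was lowest for 6 (19.7%), the overexpression control for 3 (18.0%), KAI1 knockdown replicate 2 for 1 (9.22%) and KAI1 knockdown replicate 1 for 0 (7.42%). The highest library was KAI1 knockdown replicate 1 for 16 members (10.4% of entries), the overexpression control for 9 (12.0%) and the overexpression for 1, Cdt1 (12.1%). Control replicate 1 was itself the highest for 7 members, namely Pola1, Rfc1, Rfc2, Rpa1, Ccne2, E2f1 and E2f2 (30.3% of entries).

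The overexpression control differed by at least 1.5-fold from KAI1 knockdown replicates 1 and 2 in 2 and 0 of 46 members, where 11.3% and 12.1% of all entries did. It differed from knockdown control replicates 1 and 2 in 22 and 10 members, where 41.3% and 24.4% of entries did. For members and entries alike it was farther from both controls than from the knockdown pair. Within the knockdown pair the order of members and entries differed. The median log2 difference of the members was -0.084 for control replicate 2 minus the overexpression control. For KAI1 knockdown replicate 1 minus the overexpression control it was 0.065. Leaving control replicate 1 aside, 0 to 10 of 46 members were 1.5-fold apart in any pair of the other 5 libraries, where 9.27% to 29.8% of entries were.

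The remaining replication genes, a list of 52 that are no members, had medians of the same sign and smaller size. All 52 were tested, limma called 0, and 4 had an unadjusted p below 0.05 (3.32% of entries). Differences were above 0 in 34 and below 0 in 18, with a median of 0.17. In 16 both knockdown libraries exceeded both controls (21.5% of entries) and in 4 both were below (17.0%). In the overexpression arm 37 of 51 were lower (49.4% of entries), 10 of them by at least 1.5-fold (11.4%), and 1, Rb1, was higher by that much (10.9%), with a median of -0.19.

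Rnaseh2c and Rnaseh2a, subunits of the enzyme that removes RNA from DNA, were among the largest differences of these 52. Rnaseh2c stood at 129 and 244 RPKM in the control pair against 321 and 388 RPKM in the knockdown, and at 418 and 237 RPKM in the overexpression control and the overexpression. Rnaseh2a stood at 14.2 and 15.2 against 25.3 and 26.9 RPKM and at 47.2 and 23.6 RPKM in the overexpression arm. For both genes the overexpression control was the highest library of all.

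Timeless, a fork protection gene, stood at 8.67 and 10.7 against 17.7 and 16.6 RPKM, with 16.5 and 12.1 RPKM in the overexpression arm. Rb1, which restrains E2F factors, ran the other way, at 8.43 and 2.94 against 2.33 and 2.28 RPKM, with 2.33 RPKM in the overexpression control and 4.01 RPKM in the overexpression. Orc5 went from 21.5 to 9.45 RPKM in the overexpression arm, Pold2, a polymerase delta subunit, from 69.2 to 37.1 RPKM, and Dbf4, the activator of the Cdc7 kinase, from 18.9 to 10.2 RPKM.

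Mitotic genes, taken for comparison, were also higher in the knockdown than in the control pair on average but had a median near 0 in the overexpression arm. Their geometric mean of RPKM + 1 was 27.8 in control replicate 1 and 49.23 in control replicate 2. The knockdown replicates, at 43.89 and 53.29, lay on either side of control replicate 2. Of 8 such genes 2 (Ccnb2 and Plk1) lay above both controls, a share near the 21.5% of all entries, and 0 below (17.0%). Their median was 0.38 and limma called 0. Their median log2 ratio in the overexpression was -0.0063, and 0 of 8 were 1.5-fold apart (11.4% of entries lower and 10.9% higher). All 8 were lower in control replicate 1 than in control replicate 2, where 49.2% of entries were, for example Cdk1 at 36.7 against 79.6 RPKM and Ccnb1 at 30.4 against 102 RPKM. The difference between this list and the replication genes was not tested.

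Of 12 mast cell and basophil genes 10 were highest in knockdown control replicate 1 (30.3% of all entries), and the globin genes were lowest there. Most replication genes were also lowest in that library. The summed level of 12 mast cell and basophil markers was 78112 RPKM in control replicate 1 and 16656 RPKM in control replicate 2, and 8882 and 7866 RPKM in the knockdown. It was 27992 RPKM in the overexpression and 6545 RPKM in its control. The 9 erythroid markers found of 10 summed to 185 and 4079 RPKM in the control pair, 3201 and 3831 RPKM in the knockdown, 2788 RPKM in the overexpression control and 945 RPKM in the overexpression. That sum is mostly globin mRNA, and not every gene of the list followed it: Gata1 (87.2 RPKM) and Epor (15.6 RPKM) were at their highest in control replicate 1. The CDK inhibitor gene Cdkn1a was also highest in control replicate 1, at 628 against 187 RPKM in control replicate 2 and between 268 and 412 RPKM elsewhere. Their part in the values of the replication genes was not tested. Of 3 lymphoid markers Cd3e was listed at 0 in every library and the others stayed below 1 RPKM.

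**Figure D4:**
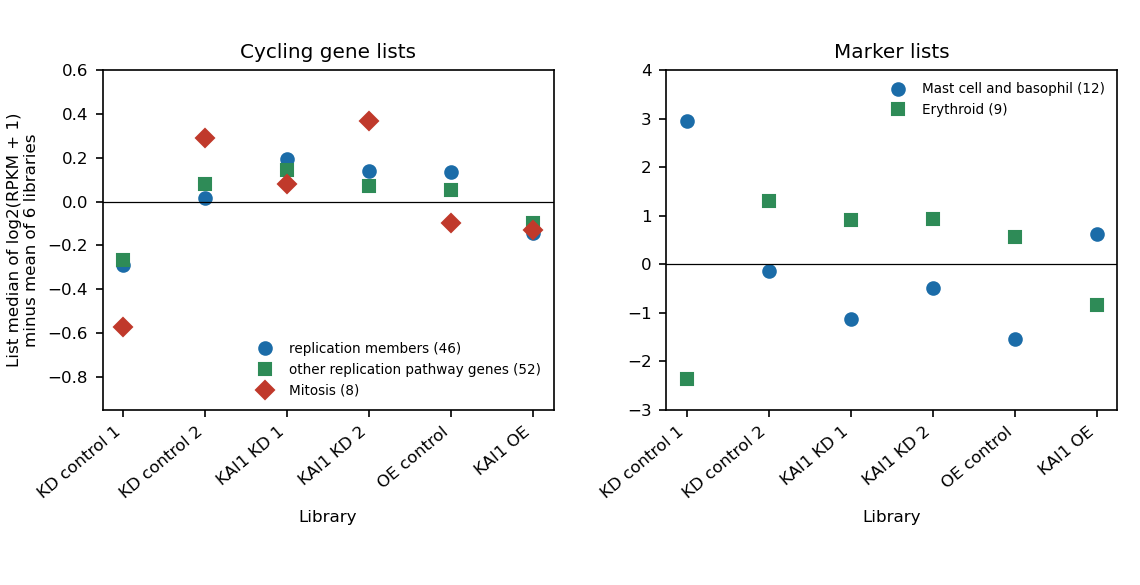
Points give, for each library, the median over a gene list of log2(RPKM + 1) minus the gene's mean over the 6 libraries; the number of genes is in brackets, and the vertical scales of the panels differ. Replication and mitosis genes are lowest in knockdown control replicate 1, where the mast cell and basophil list is highest (2.96) and the erythroid list lowest (-2.36).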

How the data were processed

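RNA-seq of 6 EML libraries was analysed, 2 knockdown controls, 2 KAI1 knockdowns, 1 overexpression control and 1 KAI1 overexpression. The authors deposited RPKM values per RefSeq entry with mm9 loci, per the file headers. Alignment and quantification involved mm9, TopHat2 (2.0.9), Bowtie and Cufflinks, per the submitters' processing notes, and no source used here gives the strand use. RPKM values are not counts, so no count model was used. Each file had 23170 entries, of which 23146 remained once repeats were merged. Symbols came from RefSeq (22840 entries) or GENCODE (125), and 181 had none.

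The knockdown was compared on log2(RPKM + 1) with limma 3.58.1 (R 4.3.3, trend), over the 10113 entries whose mean reached 1 RPKM in the 4 libraries of that arm, with Benjamini-Hochberg adjustment over all of them and a threshold of 0.05. The overexpression pair gave ratios of RPKM + 1 only. All 46 members passed both filters. A fold on this scale understates the change of low genes. The script was tested on simulated data. At the observed spread of each entry, limma recovered 26% of changes of 3 log2 units and 0% of changes of 1. At a fixed spread of 0.1 it recovered 100% of both. All member differences were smaller than 1 log2 unit, so the absence of calls among them says little. Depth was estimated from the steps between low values, using 196 entries.

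The 46 genes and every list were chosen with earlier results of these data known. Members were given in full by a rule: the highest level of a role, up to 3 largest non-overlapping knockdown differences, or the 2 largest overexpression ratios. Values of members outside the rule, such as Pcna, Gmnn and Rpa1, complete a role and were chosen after they were seen. Promoters are RefSeq windows on GRCm38.p6, while loci of entries are on mm9, and the builds were not mixed. Alternatives were another pseudocount, another filter, median-of-ratios scaling, quantile normalization, a replicate block, summed entries and each library left out.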

Additional observations from a re-analysis of the deposited data

How the results depend on the processing

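With 2 libraries a group, single libraries decide much. Leaving out 1 library at a time, limma called between 0 and 1045 entries, against 3 with all, and between 0 and 4 members. The members above the controls kept in the fit then numbered 24 to 38, where 29.2% to 44.2% of entries lay above. Those below numbered 2 to 11, where 25.7% to 41.3% of entries did. The member median ran from 0.16 to 0.45. Without control replicate 1 or 2 the calls over all entries were 16 and 1045. Over all 46 members, 30 differences were above 0 without control replicate 1, against 42 with all libraries. Single-gene values were followed only for the 30 members given in full by the rule. Among these, differences that changed sign when a library was left out ranged from -0.46 to 0.71 for E2f1, -0.21 to 1.02 for Gins1, -0.11 to 0.79 for Mcm6, -0.052 to 0.30 for Pole, -0.28 to 0.29 for Rfc2, -0.43 to 1.55 for Rfc4 and -0.082 to 1.002 for Tyms. Of those that kept their sign, the ranges were 0.12 to 1.47 for Mcm10, 0.24 to 1.21 for Mcm7, 0.49 to 1.14 for Mcm5, 0.17 to 1.09 for Cdc45 and 0.18 to 0.81 for Cdc6.

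limma called 5 entries with a pseudocount of 0.1 and 0 without a filter, and 0 members in either. Rfc2 turned to -0.0032 under median-of-ratios scaling and -0.00037 under quantile normalization. Median-of-ratios scaling together with leaving out control replicate 1 was chosen after seeing the data. It gave 24 members above the remaining control (40% of entries), 11 below (37.7%) and a member median of 0.14. With a replicate block, limma called 4 entries and 0 members. Deviations of same-numbered libraries had r = -0.075 over 10113 entries and r = -0.215 over the 46 members. With 2 libraries a group this cannot show whether same-numbered libraries were handled together. Of the single-gene knockdown values of the 30 members followed, 375 kept their direction and side of the threshold under the alternatives. Another 11 changed sign and 4 passed the threshold. The 375 include values from settings that could not change a difference. These were another filter, summed entries, a replicate block and a joint fit of all 6 libraries, where only the adjusted p could move. Overexpression ratios of 1 library against 1 have no replicate check.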
